A study of Mus musculus with 230 samples.

Results

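Integrins are cell surface receptors made of 1 α and 1 β subunit that bind extracellular matrix outside the cell and the actin cytoskeleton inside it. In sensory neurons of the dorsal root ganglion (DRG), which send axons through peripheral nerves, integrins that bind laminin, fibronectin and tenascin are known as receptors that growing axons use to adhere and extend, and they are studied as components of the regrowth program that follows nerve injury. Each α subunit sets much of the ligand choice, and β1 is the partner shared by most of them. The 10 genes described here encode 7 α subunits (Itga4, Itga5, Itga6, Itga7, Itga9, Itga11 and Itgav) and 3 β subunits (Itgb1, Itgb5 and Itgb8). They were taken by name, as 10 of the 53278 genes in the deposited table, and all 10 were among the 14212 genes with enough counts to be tested.

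RNA came from DRG sensory neurons of C57BL/6 X CAST/Ei mice, the progeny of a laboratory strain and a wild-derived strain, and all groups share this cross. Ganglia from lumbar levels L4 and L5 were dissociated, neurons were picked by hand, and the cytoplasm was used for SMART-seq2 libraries, per the labels' protocols. The 18 low-input libraries, each from a small amount of neuronal material, formed 6 groups of 3: intact neurons and neurons after sciatic nerve injury, each at 1, 8 and 12 months of age. Some labels of the 12-month libraries write their age as 1 year. A further 69 single cells were intact or injured at 1 month or 1 year. The interval between surgery and collection, the number of animals and the number of neurons in a library are not given in the sources used here, so the spread between libraries may be in part technical. The whole series holds 230 samples, and its 94 methylation samples were not analysed here.

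The low-input libraries held 7531967 to 19443627 endogenous fragment counts. A single feature, CT010467.1 on chromosome 17, took 29.4% to 93.8% of them, and at each age its share was lower in every injured than in every intact library (35.7% to 39.8% against 40.4% to 45.3% at 1 month, 41.6% to 59.7% against 65.7% to 68.2% at 8 months, and 29.4% to 39.04% against 64.2% to 93.8% at 12 months). Outside this feature, 2 intact 12-month libraries were far shallower than the rest of their group (770328 counts in replicate 2 and 1789183 in replicate 3). Mitochondrial RNA made up 40.5% of these counts in replicate 2, beside 1.19% to 3.55% in the other low-input libraries. Genes detected numbered 15755 to 18611 in intact and 17721 to 18757 in injured libraries at 1 month. At 8 months they numbered 13031 to 14765 and 15396 to 18326, and at 12 months 10778 to 15198 and 18646 to 20128. Y-linked counts were present in 6 of 6 libraries at 1 month and 6 of 6 at 8 months and in 0 of 6 at 12 months, so 12 months against the younger ages cannot be told apart from sex. The 10 neuron markers summed to 8177 to 14700 CPM in injured libraries (median 12530) and to 7662 to 16420 CPM in intact ones (median 10180). CPM, the usual depth-scaled count, were computed on library sizes scaled by TMM, with CT010467.1 included. The 6 satellite glia markers summed to 114 to 1956 CPM in injured libraries (median 665) and to 43.3 to 695 CPM in intact ones (median 114). The 6 fibroblast markers summed to 18.6 to 63.7 CPM (median 35.3) and to 0 to 74.1 CPM (median 7.21), and the 6 Schwann cell markers to 349 to 586 CPM (median 420) and to 207 to 886 CPM (median 358). Medians of the summed endothelial (6 genes), pericyte (6) and leukocyte (8) markers were 0.656, 6.96 and 3.45 CPM in injured and 0.652, 6.08 and 1.85 CPM in intact libraries, and Cldn5, C1qa and Cx3cr1 were at 0 in all intact libraries. Medians of the summed markers of large neurofilament-rich neurons (6 genes), peptidergic nociceptors (5) and non-peptidergic nociceptors (5) were 938, 1041 and 164 CPM in injured and 1131, 611 and 146 CPM in intact libraries. The part of glia and of fibroblasts in the results below was not tested. In these bulk libraries, fewer cells of a type and less RNA per cell cannot be told apart.

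Of the 10 integrin genes, 3 were higher in injured neurons when the injury contrast was averaged over the 3 ages: Itgb1, Itga7 and Itga9. The other 7 did not pass the test. A gene was called at an adjusted p below 0.05 by edgeR's quasi-likelihood test with Benjamini-Hochberg adjustment over all 14212 genes, and in this contrast 5.11% of all genes were called higher and 1.07% lower. The point estimates were above 0 for 9 of the 10 and below 0 for Itga4, with a median log2 change of 1.66 beside 0.03 over all genes tested. The median over all genes is not matched for level, and the part of the number of genes detected was not tested. An unadjusted p below 0.05 was reached by 6 of the 10 members and by 2880 of all genes.

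**Figure D1:**
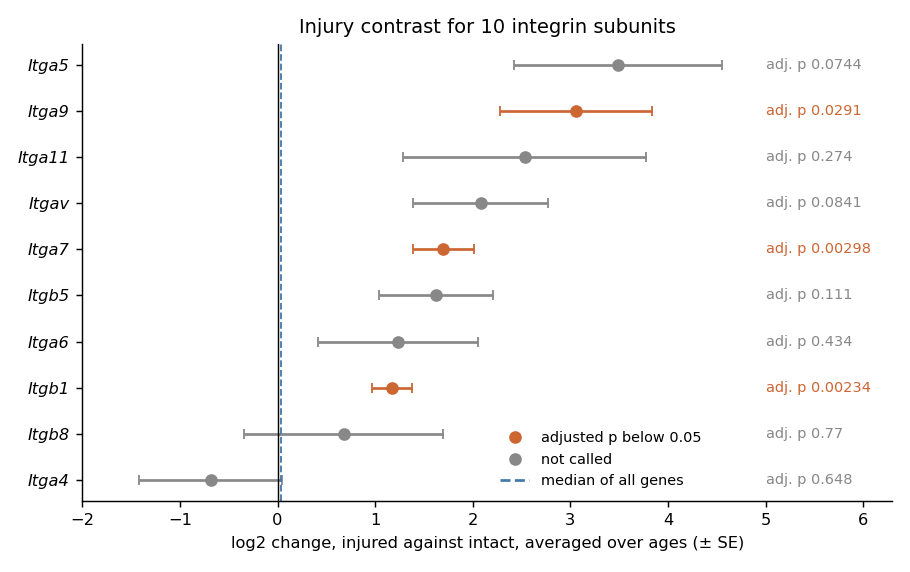
Log2 change between injured and intact neurons for the 10 integrin genes, averaged over 1, 8 and 12 months (points, with bars of ± SE derived from edgeR's F statistic). The genes called are Itgb1 at 1.17, Itga7 at 1.70 and Itga9 at 3.06, and Itgb1 and Itga7 have the shortest bars of the 10; the dashed line is the median of all genes, 0.03.

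Levels differed widely among the members. Per kilobase of exon and averaged over the 18 libraries, Itgb1 had the highest level at 15.6 ± 7.76 CPM per kb (SD, n = 18), followed by Itga7 at 11.3 ± 7.07 CPM per kb. Itga11 (1.23 ± 1.44), Itgb5 (1.10 ± 1.04), Itgb8 (0.652 ± 0.885), Itga6 (0.586 ± 0.512), Itga4 (0.203 ± 0.177), Itgav (0.143 ± 0.110), Itga9 (0.118 ± 0.145) and Itga5 (0.0489 ± 0.0784) followed in CPM per kb. Only the step from Itga7 to Itga11 was larger than the larger SD of the pair; each of the other 8 neighbouring steps was smaller. Itgb1 and Itga7 had counts in all 18 libraries, and Itga5 in 9.

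RefSeq promoter windows of GRCm38.p6, from 250 bases before to 50 bases after a transcript start, were on hand for 8 of the 10 members. They are shown for Itgb1 and Itga9, the called genes that have one, as the reference sequence beside which their changes can be read. Both lie on the plus strand, Itgb1 at chr8:128685404-128685703 and Itga9 at chr9:118711442-118711741. Capitals mark a GC box (GGGCGG) in the Itgb1 window and an AP-1 motif (TGACTCA or TGAGTCA, the element bound by Jun and Fos family factors) in the Itga9 window.
Itgb1: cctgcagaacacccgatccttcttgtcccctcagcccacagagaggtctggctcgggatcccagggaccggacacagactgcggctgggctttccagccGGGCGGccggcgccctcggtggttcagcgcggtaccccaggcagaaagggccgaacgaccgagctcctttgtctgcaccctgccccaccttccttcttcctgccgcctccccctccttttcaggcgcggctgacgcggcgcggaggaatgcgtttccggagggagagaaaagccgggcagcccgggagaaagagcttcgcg
Itga9: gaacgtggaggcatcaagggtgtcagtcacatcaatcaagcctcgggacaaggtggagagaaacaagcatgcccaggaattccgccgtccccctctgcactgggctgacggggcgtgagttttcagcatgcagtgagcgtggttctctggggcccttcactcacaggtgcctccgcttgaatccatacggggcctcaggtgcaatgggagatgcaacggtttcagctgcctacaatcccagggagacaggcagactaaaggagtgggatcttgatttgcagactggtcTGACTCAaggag
Searched on both strands, the AP-1 motif was in 1 of the 8 member windows, that of Itga9 (from base 39 after the start), and in 5.2% of all 32851 windows. The GC box was in 5 of the 8, those of Itga4, Itga5, Itgav, Itgb1 and Itgb5, and in 35.66% of all windows. The cAMP response element TGACGTCA was in 0 of 8 and in 1.79% of all windows; it shares the letters TGA and TCA with AP-1, but no match of either contains the other. The RefSeq start of the Itgb1 window is the first base of the gene in the deposited table, whereas the Itga9 window belongs to a RefSeq start 105002 bases inside that gene. The Itgb1 window held 27 CG pairs and the Itga9 window 10, beside a median of 7 over all windows. These matches are descriptions of the reference letters only.

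Itgb1 encodes β1, the subunit that all 7 α members can use as a partner. Its gene spans 128685654 to 128733200 of chromosome 8 on the plus strand (GRCm38). At 1 month it measured 33.9, 33.1 and 38.01 CPM in the intact libraries and 99.95, 60.4 and 82.6 CPM in the injured ones. At 8 months the values were 46.7, 65.7 and 33.9 CPM against 45.9, 89.8 and 82.9 CPM. At 12 months they were 50.3, 30.7 and 18.7 CPM against 114, 120 and 100 CPM. All injured libraries lay above all intact ones at 1 and at 12 months, while at 8 months injured replicate 1 fell among the intact libraries. The mean over 9 libraries was 88.5 ± 23.96 CPM after injury and 38.999 ± 13.6 CPM in intact neurons (SD, n = 9 each). The averaged log2 change was 1.17 ± 0.21 (SE, edgeR adjusted p = 0.00234). Taken by age, the log2 change was 1.21 ± 0.36 at 1 month (edgeR adjusted p = 0.398), 0.58 ± 0.35 at 8 months (adjusted p = 0.573) and 1.73 ± 0.37 at 12 months (adjusted p = 0.0204). The averaged call was lost with the share of CT010467.1 as a covariate (0.78, edgeR adjusted p = 0.215). That share separates injured from intact libraries at every age, so a call lost with it cannot tell the share and injury apart. The 12-month call was lost with the replicate block (adjusted p = 0.0700), without intact replicate 3 (0.0619), without injured replicate 1 (0.0686), without injured replicate 2 (0.0785), with that covariate (0.444) and without both intact libraries of low depth (0.196).

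Itga7 encodes α7, which pairs with β1 to bind laminin and is known from regenerating DRG and motor neurons. It lies on chromosome 10, 128933818 to 128958282, plus strand. At 1 month it measured 61.2, 26.8 and 34.1 CPM in intact and 130, 85.4 and 90.7 CPM in injured libraries. At 8 months the values were 65.4, 57.2 and 36.3 CPM against 149, 166 and 149 CPM, and at 12 months 20.97, 83.1 and 9.995 CPM against 153, 201 and 128 CPM. Every injured library was above every intact library of the same age at all 3 ages, which held for no other member and for 1.83% of all genes tested. The intact 12-month value of 83.1 CPM came from replicate 2, where it rested on 46 counts. The averaged log2 change was 1.70 ± 0.31 (SE, edgeR adjusted p = 0.00298), from 43.9 ± 23.97 to 139 ± 35.97 CPM (SD, n = 9 each). It stayed called under all 27 alternative settings, with log2 changes of 1.54 to 2.08 when 1 library was left out. By age, the log2 change was 1.33 ± 0.52 at 1 month (edgeR adjusted p = 0.860), 1.55 ± 0.53 at 8 months (adjusted p = 0.199) and 2.22 ± 0.56 at 12 months (adjusted p = 0.0407). The 12-month call was lost in 12 of the 27 settings, 11 of which left out 1 library: any injured 12-month library (adjusted p = 0.0984, 0.144 and 0.0830 for replicates 1 to 3), intact 12-month replicate 1 (0.106) or 3 (0.0944), injured 8-month replicate 2 (0.0564) or 3 (0.0586), intact 1-month replicate 3 (0.0530), and any injured 1-month library (0.0570, 0.0573 and 0.0600).

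**Figure D2:**
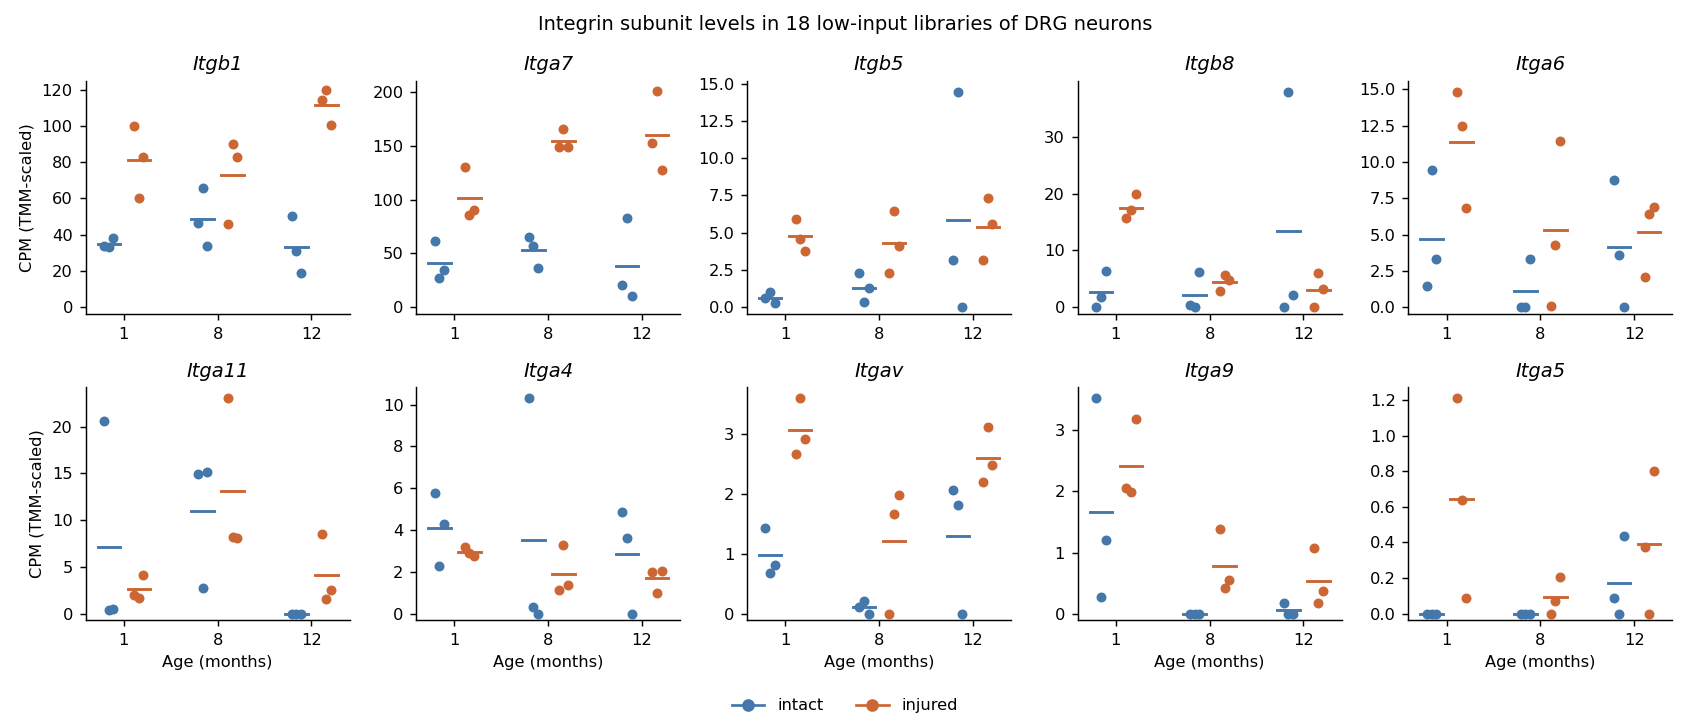
CPM of the 10 integrin genes in each of the 18 low-input libraries (points) against age in months, with intact libraries in blue, injured ones in orange and the mean of 3 libraries as a bar; each panel has its own linear axis. Itga7 is the member whose injured points lie above its intact points at all 3 ages (128 to 201 CPM against 9.995 to 83.1 CPM at 12 months), and the intact point of Itgb8 at 37.9 CPM is from the shallowest library.

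Itga9 encodes α9, a receptor with β1 for tenascin-C, osteopontin and VCAM-1. Its gene spans 118606690 to 118901003 of chromosome 9, plus strand. It was low throughout. At 1 month it measured 3.52, 0.273 and 1.21 CPM in intact and 2.06, 1.99 and 3.18 CPM in injured libraries, which overlapped. At 8 months the 3 intact libraries had no count, and the injured ones had 1.39, 0.417 and 0.546 CPM (29 counts in all), at least 7.55-fold higher than a floor of 3 counts over the intact group. At 12 months intact libraries measured 0.171, 0 and 0 CPM and injured ones 1.07, 0.176 and 0.364 CPM, a ratio of 4.5 with an exact 95% interval of 1.12 to 39.2 from 25 against 2 counts. Floors and intervals account for the error of counting alone, since copies made by PCR do not count as separate molecules. The averaged log2 change was 3.06 ± 0.78 (SE, edgeR adjusted p = 0.0291). A fitted change of a gene with groups at 0 depends on edgeR's prior count and is no bound. The call was lost with the replicate block (adjusted p = 0.0864), with limma-voom (0.116), with the covariate (0.189), without both low-depth libraries (0.0760), and without intact 1-month replicate 3 (0.0506), injured 1-month replicate 1 (0.0514) or 3 (0.0558), intact 12-month replicate 3 (0.0532) or injured 12-month replicate 1 (0.0625).

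The other α members that bind laminin or fibronectin were not called in the averaged contrast. Itga6 encodes α6, a second laminin receptor subunit. It measured 0.0925 to 14.8 CPM in injured libraries (median 6.80) and 0 to 9.43 CPM in intact ones (median 3.28), and the groups overlapped at every age. Its averaged log2 change was 1.24 ± 0.82 (SE, edgeR adjusted p = 0.434) and turned to -1.10 with the covariate. Itga5 encodes α5 of the fibronectin receptor. It had no count in the 3 intact 1-month libraries and 1.21, 0.641 and 0.0884 CPM in the injured ones (31 counts), at least 14.2-fold above the floor of 3 counts over the group. At 8 months it had 4 counts after injury and 0 in intact libraries, and at 12 months 17 against 3 (ratio 2.04, exact 95% interval 0.591 to 10.9). Its averaged log2 change was 3.49 ± 1.07 (SE, edgeR adjusted p = 0.0744). Itga4 encodes α4, which binds VCAM-1 and fibronectin. It measured 0.996 to 3.26 CPM in injured libraries (median 2.04) and 0 to 10.3 CPM in intact ones (median 3.61). Its averaged log2 change was -0.69 ± 0.73 (SE, edgeR adjusted p = 0.648). The sign of this value turned with limma-voom (0.73) and the replicate block (0.46), and without intact 8-month replicate 1 (0.81), whose 10.3 CPM is the highest Itga4 value. With spike-in scaling the value was 2.84, where the median of all genes was 2.90 and Itga4 lay at -0.06 relative to it.

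Itga11 encodes α11, a receptor with β1 for fibrillar collagen. At 1 month it measured 20.6, 0.342 and 0.519 CPM in intact and 2.00, 1.67 and 4.15 CPM in injured libraries, and at 8 months 14.9, 2.70 and 15.2 CPM against 23.04, 8.19 and 8.12 CPM. At 12 months the intact libraries had no count, and the injured ones had 8.48, 1.58 and 2.48 CPM (196 counts), at least 23.6-fold above the floor. The averaged log2 change was 2.53 ± 1.25 (SE, edgeR adjusted p = 0.274). Without intact 1-month replicate 1, which held 275 of the 294 intact 1-month counts, it was 3.89 and called (adjusted p = 0.00679).

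Itgav, Itgb5 and Itgb8 belong together because αv pairs with β5 and β8 as well as with β1; αvβ5 binds vitronectin and αvβ8 binds latent TGF-β. None was called in the averaged contrast. Itgav measured 2.66, 3.59 and 2.92 CPM in injured and 1.42, 0.684 and 0.807 CPM in intact libraries at 1 month, where the groups did not overlap. At 8 months it had 53 counts after injury against 3 (ratio 13.8, exact 95% interval 4.47 to 69.04), although injured replicate 1 had none. At 12 months it measured 2.20, 3.11 and 2.48 CPM against 2.05, 1.81 and 0 CPM. Its averaged log2 change was 2.08 ± 0.69 (SE, edgeR adjusted p = 0.0841) and was called without injured 8-month replicate 1 (2.27, adjusted p = 0.0220).

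Itgb5 measured 5.93, 4.55 and 3.80 CPM in injured and 0.600, 1.03 and 0.288 CPM in intact libraries at 1 month, and 2.31, 6.46 and 4.10 CPM against 2.27, 0.324 and 1.31 CPM at 8 months. At both ages the groups did not overlap. At 12 months the injured values of 3.14, 7.32 and 5.61 CPM overlapped with intact values of 3.17, 14.4 and 0 CPM, of which 14.4 CPM rested on 8 counts in replicate 2. The averaged log2 change was 1.62 ± 0.58 (SE, edgeR adjusted p = 0.111), and it was called without that library (2.08, adjusted p = 0.0236).

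Itgb8 measured 15.7, 17.1 and 19.9 CPM in injured against 0, 1.74 and 6.29 CPM in intact libraries at 1 month, with no overlap. At 8 months the values were 2.87, 5.62 and 4.85 CPM against 0.309, 0 and 6.16 CPM, and at 12 months 0, 6.03 and 3.28 CPM against 0, 37.9 and 2.17 CPM, where 37.9 CPM stood for 21 counts. The averaged log2 change was 0.68 ± 1.02 (SE, edgeR adjusted p = 0.770). The satellite glia markers summed to 1243 to 1956 CPM in the injured 1-month libraries and to 96.8 to 589 CPM in the intact ones. At 8 months they summed to 319 to 681 CPM against 94.7 to 520 CPM. Their part in the Itgb8 values was not tested in these libraries.

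At single ages the calls were few. At 1 month 0 of the 10 members were called by edgeR, beside 0.232% of all genes. At 8 months 0 were called, beside 0.957%. At 12 months 2 were called, Itgb1 and Itga7, beside 2.99%. An unadjusted p below 0.05 was reached by 4, 3 and 3 members at these ages, and by 640, 1727 and 2640 of the 14212 genes. DESeq2 called 0, 1 and 2 members at these ages and limma-voom 2, 0 and 2, with no count over all genes set beside them. Non-overlap with injured libraries higher was seen for 6 members at 1 month (Itga5, Itga7, Itgav, Itgb1, Itgb5 and Itgb8) beside 10.5% of all genes, for 3 at 8 months (Itga7, Itga9 and Itgb5) beside 9.39%, and for 5 at 12 months (Itga7, Itga9, Itga11, Itgav and Itgb1) beside 19.2%. In the joint test of whether the injury effect differed between ages, edgeR called 0 members and 0 of all genes, or 0%. The unadjusted p was below 0.05 for 2 members, Itga11 (adjusted p = 0.506) and Itga9 (adjusted p = 0.524), and for 1161 genes. DESeq2 called 0 members and 207 genes, and limma-voom 0 members and 6 genes. A difference in the injury effect between ages was therefore not shown for any member.

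Between ages, 2 members were called in intact neurons, both lower at the older age. Itga9 fell between 1 and 8 months, from 76 counts over the 3 libraries to none, which is at least 13.2-fold lower against the floor (edgeR adjusted p = 0.0412; 0.922% of all genes were called in this comparison). Itga11 fell between 8 and 12 months, from 355 counts to none, at least 64-fold lower (edgeR adjusted p = 0.0417, beside 6.69% of all genes). For Itga11, age and sex cannot be told apart, since Y-linked counts were present in 6 of 6 libraries at 8 months and 0 of 6 at 12 months. The first call was lost in 16 of 27 and the second in 13 of 26 settings, limma-voom among them (adjusted p = 0.370 and 0.269). The Itga9 call was lost without any 1 of 14 libraries (intact 1-month replicates 1 and 3, injured 1-month 1 to 3, intact 8-month 1 to 3, injured 8-month 2 and 3, intact 12-month 1, and injured 12-month 1 to 3), with an adjusted p of at most 0.113. The Itga11 call was lost without any 1 of 11 (injured 1-month 1 to 3, intact 8-month 1 and 2, injured 8-month 2 and 3, intact 12-month 1 and 3, and injured 12-month 2 and 3), with an adjusted p of at most 0.136, and without both low-depth libraries (0.154). Between 1 and 12 months in intact neurons 0 members were called, beside 0.246% of all genes. By the unadjusted p, 4 members and 1526 genes were below 0.05. Among injured neurons 0 members were called in each of the 3 age comparisons, beside 0.225%, 0.113% and 0.0633% of all genes. An unadjusted p below 0.05 was reached by 1 member in 1 of them (Itga9, 12 against 1 month), where 549 genes reached it. Comparisons that share a group are not independent of each other.

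Across the 18 libraries, the members whose levels moved most alike were Itga7 and Itgb1, with a Pearson r of 0.801 on log2(CPM + 1), followed by Itga6 and Itgav at 0.778. The lowest value was -0.328, for Itga6 and Itga11. These 45 pairwise values share libraries, depth and the injury design, and they are given as a description. Over all genes tested, the most similar to Itgb1 were Bach1 (0.911) and Adam8 (0.894). For Itga7 they were Stmn4 (0.935) and Dgcr2 (0.926), and for Itga9 Lrrk1 (0.904) and 1810034E14Rik (0.897), each as a Pearson r over 18 libraries of log2 CPM.

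Of 45 genes for integrin ligands and matrix proteins, 30 were tested, and 8 rose and 0 fell after injury in the averaged contrast, with a median log2 change of 1.82. Over all genes tested, 5.11% rose and 1.07% fell, with a median of 0.03 that is not matched for level. The lists below are to be read against the same shares. The called genes were 5 laminin chains, a nidogen, a secreted RGD protein and a collagen chain. Lama5, the α5 laminin chain, rose from 0.259 ± 0.407 to 9.67 ± 3.01 CPM (SD, n = 9 each; edgeR adjusted p = 9.35e-05), with the lowest injured library at 5.19 and the highest intact one at 1.20 CPM. Lamb3, the β3 chain, measured 1.87 ± 1.17 CPM after injury and had a count in 1 of 9 intact libraries (edgeR adjusted p = 0.000455). Lamc1, the γ1 chain, rose from 0.9503 ± 1.09 to 3.76 ± 1.78 CPM (edgeR adjusted p = 0.00975). Lama3 (log2 change 3.11), Lama2 (3.51), Nid2 (4.93), Mfge8 (2.25) and Col1a2 (3.93) were called with edgeR adjusted p between 0.0178 and 0.0254. With the replicate block, the adjusted p rose to 0.0517 for Lamc1, 0.130 for Nid2, 0.106 for Mfge8, 0.125 for Lama2 and 0.0951 for Col1a2. Leaving out intact 12-month replicate 1 ended the calls of Lama2 (0.0624) and Col1a2 (0.0626), and leaving out injured 12-month replicate 2 that of Col1a2 (0.0559). Without both low-depth libraries the calls of Mfge8 (0.0631), Lama2 (0.0533) and Col1a2 (0.0616) were lost. Lama5 and Lamb3 kept their calls in all 27 settings. Col1a2 is also on the fibroblast list, whose median summed level was 35.3 CPM after injury and 7.21 CPM in intact libraries. Of the ligands of α9β1 named above, Tnc and Spp1 were not called (log2 change 2.19 and -0.51, edgeR adjusted p = 0.377 and 0.863). Vcam1 was not among the genes tested. It measured 0 to 0.510 CPM in injured libraries and 0 in all 9 intact ones.

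Of 45 adaptors and kinases that bind or act on integrin tails, 42 were tested, 2 rose and 0 fell, with a median log2 change of 0.17. This count is near the 5.11% of all genes called higher and is no result about the list. Vcl, vinculin, which links talin to actin, rose from 14.99 ± 8.50 to 26.2 ± 5.50 CPM (SD, n = 9 each; log2 change 0.98, edgeR adjusted p = 0.00241). Cd81, a tetraspanin that associates with integrins, rose from 15.5 ± 14.1 to 41.1 ± 25.1 CPM (log2 change 2.05, edgeR adjusted p = 0.0253), and it lost its call in 8 of 27 settings, the replicate block (adjusted p = 0.0823) and the absence of intact 1-month replicate 2 (0.0541), injured 1-month replicate 2 (0.0546), injured 8-month replicate 2 (0.0645) or injured 12-month replicate 2 (0.0609) among them. It was also lost with limma-voom (0.168) and without both low-depth libraries (0.107). Of 19 trafficking genes 17 were tested and 0 were called (median -0.11). Of 17 other integrin subunits 9 were tested and 1 rose, Itga2, which encodes a collagen and laminin receptor subunit (log2 change 4.20, edgeR adjusted p = 0.0163), a call lost with the replicate block (0.0877) and with limma-voom (0.0596). For scale, 9 of 10 nerve injury genes rose, with a median log2 change of 4.49. In intact neurons at 12 against 8 months, 1 of the 42 adaptors and kinases was called higher and 3 lower, beside 6.69% of all genes called, and age and sex cannot be told apart here. Vcl fell by 1.91, Tln2, a talin, by 1.42 and Actn4, an actinin, by 1.14, while Cd81 rose by 3.69 on the log2 scale (edgeR adjusted p = 0.00575, 0.0269, 0.0438 and 0.0343). The intact 12-month group holds both low-depth libraries, and no alternative settings are given for these calls. Actn4 lies outside the rule for named genes and was added after its value was seen.

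**Figure D3:**
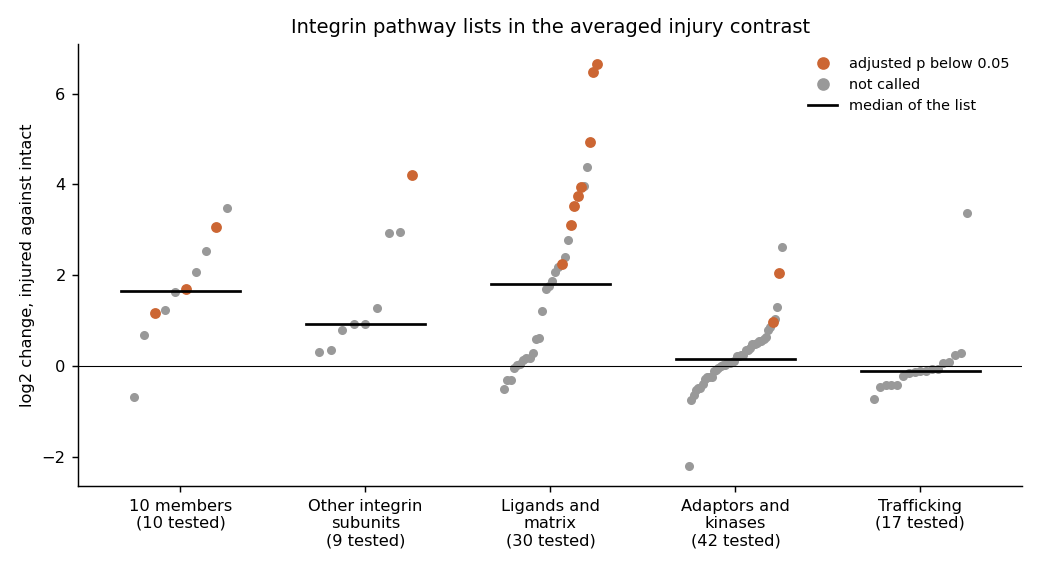
Log2 change between injured and intact neurons, averaged over ages, for every tested gene of the integrin members and of 4 related lists; orange points were called and the black bar is the median of a list. The medians are 1.66 for the 10 members, 0.93 for other subunits, 1.82 for ligands and matrix, 0.17 for adaptors and kinases and -0.11 for trafficking.

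In single cells, the subunits detected in the same cell were counted. Of the 69 cells, 68 had endogenous counts: 18 intact and 21 injured at 1 month, 8 intact and 21 injured at 1 year. The labels name no animal for them, so each group is 1 sample, no test between groups was made, and intervals cover counting error only. Single-cell CPM leave CT010467.1 out of the denominator and are not on the scale of the low-input values. Median depth outside that feature was 291824, 1033580, 7145018 and 3571619 counts in the 4 groups in this order. In 6 of the 68 cells the satellite glia and Schwann cell markers together outweighed the neuron markers: 1 injured 1-month cell, 1 intact 1-year cell and 4 injured 1-year cells. Mitochondrial RNA made up 23.9% to 68.3% of their counts outside CT010467.1. In the other cells it ranged from 0.0828% to 60.6%, the latter in a cell of 15071 counts. Counts of cells, and the pooled values that the 6 cells move beyond their interval, are given with and without them.

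Itgb1 had a count in 61 of 68 cells (89.7%, exact Clopper-Pearson 95% interval 79.9% to 95.8%), Itga7 in 55 (80.9%, 69.5% to 89.4%) and Itga6 in 40 (58.8%, 46.2% to 70.6%). Itga4 was found in 32 cells, Itgav in 31, Itgb5 and Itgb8 in 27 each, Itga11 in 23, Itga9 in 16 and Itga5 in 10. Among the 62 cells left without the 6, Itgb1 was found in 55, Itga7 in 50, Itga6 in 36, Itga4 and Itgav in 28 each, Itgb5 in 25, Itgb8 in 22, Itga11 in 21, Itga9 in 13 and Itga5 in 7. The 7 cells without Itgb1 had a median depth of 8369 counts, beside 3571619 in the 61 with it. None of the 7 had a count of any of the 10 genes. These cells held up to 267865 counts and 109 to 1141 detected genes. In those at 1 month, spike-ins made up 94.3% to 99.9% of all counts. An injured 1-month cell of 4945 counts had Itgb1, with spike-ins at 99.9%. The parts of depth and of cell quality in detection were not tested. No share expected from depth was set beside the counts of shared detection that follow. Every cell with a count of an α member also had Itgb1, and 55 of the 61 Itgb1 cells had at least 1 of the 7 α members, with a median of 3. Of the 31 Itgav cells, 21 also had Itgb5 and 20 had Itgb8. A cell had a median of 5 of the 10 members, and 4 cells had all 10. Without the 6 cells, every cell with an α member again had Itgb1, 50 of 55 Itgb1 cells had at least 1 α member, 20 and 17 of 28 Itgav cells had Itgb5 and Itgb8, the medians were again 3 and 5, and 3 cells had all 10 members. In the 50 cells with at least 200000 counts, thinned to that depth, the expected shares were 95.6% for Itgb1, 87.7% for Itga7 and 47.1% for Itga6; 8, 5, 0 and 5 cells of the 4 groups were too shallow and were left out.

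Pooled over cells, Itgb1 measured 177 CPM in intact 1-month cells (exact Poisson 95% interval 172 to 181) and 381 CPM in injured ones (376 to 386), and 162 CPM (159 to 166) and 207 CPM (204 to 210) at 1 year. Itga7 measured 107 CPM (104 to 111) and 201 CPM (197 to 205) at 1 month, and 155 CPM (152 to 158) and 156 CPM (153 to 158) at 1 year. Within groups the cells spread far more than these intervals, from 0 to 977 CPM for Itgb1 and from 0 to 546 CPM for Itga7 in injured 1-month cells. Medians over cells were 140 and 179 CPM for Itgb1 and 63.03 and 56.8 CPM for Itga7 in intact and injured 1-month cells. For Itga7 at 1 month the pooled value and the median over cells thus differ in direction. At 1 year the medians in intact and injured cells were 159 and 144 CPM for Itgb1, again opposite to the pooled values. The means over these cells were 162.2 and 162.0 CPM. For Itga7 the 1-year medians were 132 and 133 CPM. Without the 6 cells, pooled Itgb1 was 216 CPM and pooled Itga7 169 CPM in injured and 179 and 161 CPM in intact 1-year cells.

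The less abundant members were concentrated in few cells. Pooled Itgb8 was 108 CPM in injured 1-year cells (106 to 110), against 8.19 CPM in intact 1-year, 7.68 CPM in intact 1-month and 0.116 CPM in injured 1-month cells. The highest cell, at 1078 CPM, held 44.3% of the Itgb8 counts of its group, and the next highest measured 643, 247 and 218 CPM. These 4 cells are the 4 injured 1-year cells in which glial markers outweighed neuron markers. Their satellite glia markers summed to 14007, 49461, 40738 and 4980 CPM, their Schwann cell markers to 2516, 15113, 6053 and 14892 CPM and their neuron markers to 5071, 1994, 3639 and 7750 CPM, in the same order. In the cell at 218 CPM the satellite glia markers alone were below the neuron markers, and it was counted through its Schwann cell markers. Without them pooled Itgb8 in this group was 21.2 CPM, with a highest cell of 50.6 CPM. Pooled Itga5 of this group went from 3.35 to 0.103 CPM without the same cells, Itga9 from 2.74 to 0.295 CPM, Itgav from 14.4 to 8.59 CPM, Itga6 from 15.3 to 11.6 CPM and Itgb5 from 5.61 to 3.42 CPM. Itga11 was 11.9 CPM with and 13.5 CPM without them, and Itga4 5.91 CPM with and 5.12 CPM without them. The intact 1-year cell with more glial than neuronal markers held 73.4% of the Itga9 counts of its group, whose pooled value was 5.61 CPM with and 1.68 CPM without it. Pooled Itgav of that group was 6.91 CPM with and 4.06 CPM without the same cell. Without it, pooled Itga11 of the group went from 10.98 to 12.4 CPM and Itgb5 from 5.51 to 6.20 CPM. Free or adhering glial RNA and glial cells cannot be told apart in these values, and the part of cell quality was not tested.

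**Figure D4:**
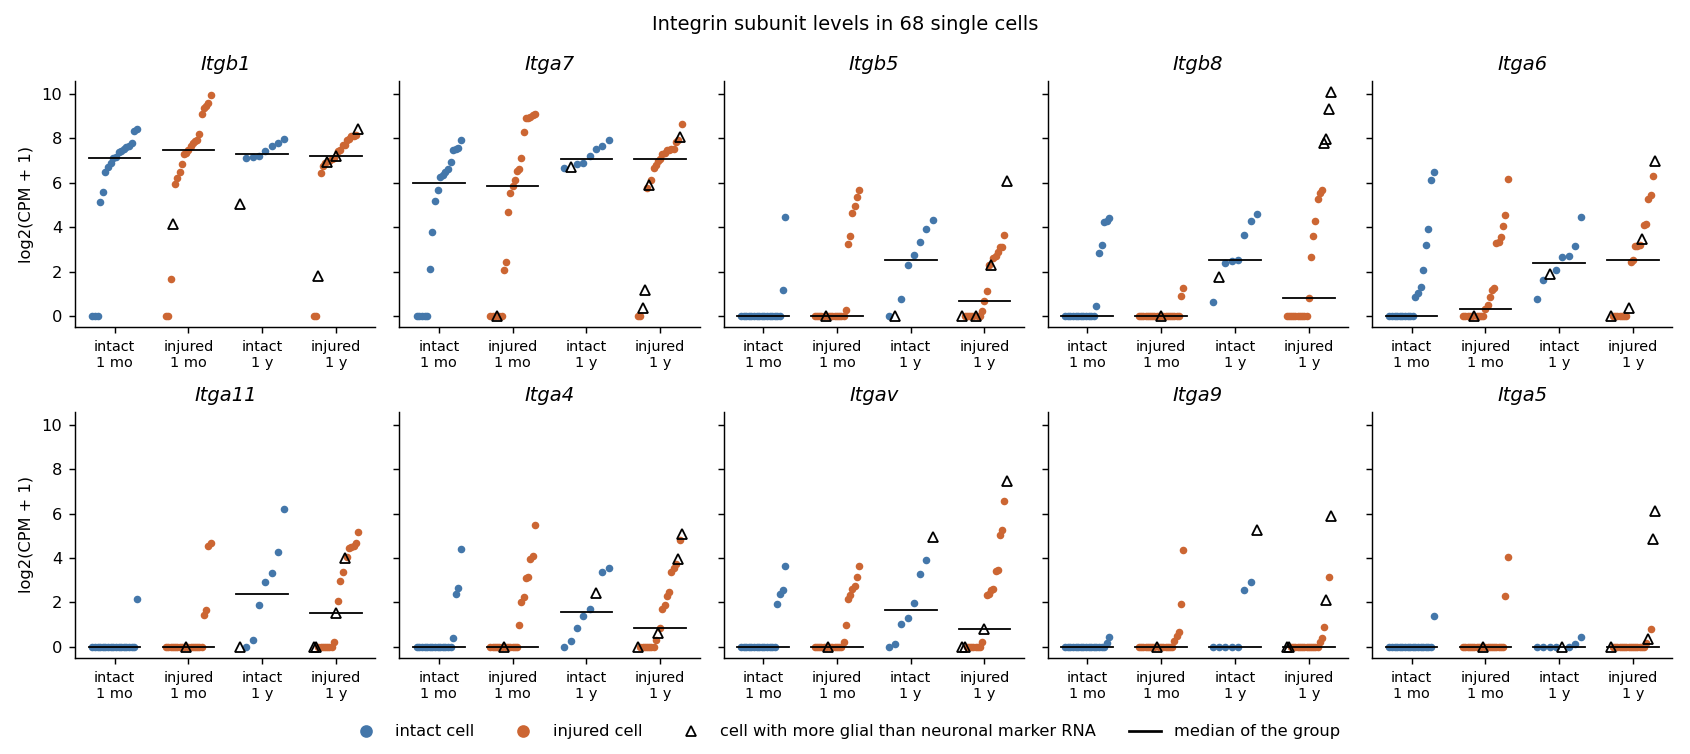
Level of the 10 integrin genes in each of 68 single cells as log2(CPM + 1), in 4 groups (blue intact, orange injured, with 1-month and 1-year cells side by side); black bars are medians and open triangles are the 6 cells in which glial markers outweighed neuron markers. For Itgb8 the 4 highest points, from 218 to 1078 CPM, are triangles of the injured 1-year group, and Itgb1 and Itga7 are above 0 in most cells of every group.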

How the data were processed

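RNA counts of 18 low-input libraries and 69 single cells were used; 0 columns of values were left unused. The values are unnormalized counts of read pairs for each gene, made by the authors with featureCounts 1.5.2 in paired mode, unstranded, over exons by gene name (GENCODE M16 with ERCC spike-ins, GRCm38), per the file headers. Trim Galore and STAR are named in the submitters' processing notes, with mm10. Exon lengths (bp) come from the same deposited table. Without strand, reads of overlapping antisense genes cannot be told apart, and CAST/Ei alleles were counted on a C57BL/6 reference.

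Of 53370 features, 92 were spike-ins and were removed. In R 4.3.3, edgeR 4.0.16 was applied with filterByExpr (14212 genes), TMM scaling and a robust quasi-likelihood model of 6 group means (12 residual degrees of freedom, biological coefficient of variation 0.543); tests were two-sided, with Benjamini-Hochberg adjustment and a threshold of 0.05. This test gives no SE, so each edgeR SE printed here is the size of the log2 change divided by the square root of its F statistic. For genes with groups at 0 it depends on the prior count, as the fitted change does. The functions were tested on simulated data. Alternatives were DESeq2 1.42.0, limma-voom (limma 3.58.1), RLE and spike-in scaling, no filter, removal of CT010467.1 or its share as a covariate, a replicate block, and leaving out libraries. Depth was 770328 to 11587094 counts outside CT010467.1.

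Replicate numbers were checked for pairing by correlating deviations from group means over 2365 genes. At 1 month the values were 0.109, 0.371 and 0.328, so these numbers may pair injured and intact libraries. At 8 months they were -0.432, -0.241 and -0.0159 and at 12 months -0.0852, -0.0614 and 0.0783, which showed no such pairing. The names of the low-input libraries carry l when intact and r when injured, so this letter cannot be told apart from injury. The main fit used no pairing at any age. For injury contrasts, the replicate block paired libraries by number within every age, 8 and 12 months among them. For age contrasts, the block was the replicate number across ages. Calls lost with the block in the averaged contrast or at 12 months thus rest in part or wholly on pairs that these values do not show.

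Single-cell counts were pooled per group as CPM. The members, marker lists and pathway lists were chosen with earlier results of these data known. Named genes are all members, list genes called in the averaged contrast (at most 8 a list, at most 3 in other contrasts), and the 2 genes most similar to each called member. Tnc, Spp1, Vcam1 and Actn4 were added after their values were seen.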

Additional observations from a re-analysis of the deposited data

Results flagged for a closer look

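In the group of 8 intact 1-year cells, a single cell stood apart from the others for 4 of the 10 members, by Dixon's criterion at 95%. Its chance rate of about 1 in 20 holds for normally distributed values. That rate does not apply here, where Itga5, Itga9 and Itga11 have cells at 0. The criterion was not applied to the larger groups of cells. The highest Itga5 cell measured 0.362 CPM, which rested on 2 of the 3 Itga5 counts of the group. The highest Itga6 cell measured 21.2 CPM and the highest Itga11 cell 72.4 CPM, the latter with 55.8% of the Itga11 counts of the group. The highest Itga9 cell measured 37.1 CPM, and it is the intact 1-year cell in which glial markers outweighed neuron markers.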

How the results depend on the processing

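In the averaged injury contrast 3 members were called. The count was 10 with spike-in scaling, 8 without the filter, 5 with DESeq2, 1 with the covariate and 2 with the replicate block, and 2 to 4 when 1 library was left out. Except for the replicate block, no count over all genes is set beside these counts or those below. They describe the settings and are no result about the members. Spike-in scaling moved the median of all genes by 2.90 (log2), and Itga7 was 1.99 above that median, Itgb1 1.01 and Itga9 2.87. At 1 month, where 0 were called, limma-voom and the unfiltered fit each called 2. At 8 months (0 called) the counts were 2 with spike-in scaling, 1 with DESeq2, 3 without the filter and 1 without both low-depth libraries, and 0 to 1 when 1 library was left out. At 12 months (2 called) the count was 10 with spike-in scaling, where the median of all genes moved by 5.36, and 1 with RLE scaling, the covariate, the replicate block and without both low-depth libraries, and 0 to 3 when 1 library was left out.

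In intact neurons at 8 against 1 month (1 called) the counts were 2 with spike-in scaling and 0 with limma-voom and the covariate, and 0 to 1 when 1 library was left out. At 12 against 1 month (0 called) spike-in scaling called 7 and the unfiltered fit 1. At 12 against 8 months (1 called) the counts were 2 without the filter and 0 with limma-voom and without both low-depth libraries, and 0 to 2 when 1 library was left out. In injured neurons at 8 against 1 month and 12 against 1 month (0 called), the unfiltered fit called 1 in each, and limma-voom called 1 in the second. In the joint test (0 called) spike-in scaling called 1 and the unfiltered fit 2. The replicate block called 1 member in intact neurons at 8 against 1 month and 1 at 12 against 8 months, as in the fit without it; with the covariate, Itga7, Lama5 and Lamb3 kept their averaged calls, and the calls of Itgb1, Itga9, Itga2, Lamc1, Lama3, Nid2, Mfge8, Lama2, Col1a2, Vcl and Cd81 were lost. The block also ended the calls of Itga9, Itga2, Lamc1, Nid2, Mfge8, Lama2, Col1a2 and Cd81 given above, and over all genes it lowered the count from 878 to 329.

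Directions turned for Itga4, with 0.73 under limma-voom, 0.46 with the block and -0.91 to 0.81 when 1 library was left out. Under spike-in scaling Itga4 was at 2.84, which is -0.06 relative to the median of all genes. Directions also turned under the covariate for Itga6 (-1.10) and Mfge8 (-1.39). The share used as covariate separates injured from intact libraries at each age. Calls lost and directions turned with it therefore cannot tell the share and injury apart. The causes were not tested. Members with a count in at least 50% of the single cells numbered 3, and 5 in the 55 cells with at least 100000 counts. Without CT010467.1, Itga5 did not pass the filter, and DESeq2 gave no adjusted p for Itga11 in the averaged contrast or at 12 against 8 months. The setting without both low-depth libraries and the values without cells rich in glial markers were chosen after seeing the data. Depth limits Itga5 and Itga9, with 55 and 233 counts over the 18 libraries.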

Other observations

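Integrin subunits outside the 10 members covered a wide range of levels, and the genes named here were chosen after their values were seen. Itga3, which encodes a laminin receptor subunit, had the highest level among them at 5.45 CPM per kb over the 18 libraries, between Itga7 and Itga11 of the members. It measured 20.97 to 59.5 CPM in injured and 3.69 to 78.3 CPM in intact libraries, with a log2 change of 0.36 ± 0.38 (SE, edgeR adjusted p = 0.648). Itgb6, a further partner of αv, measured 1.59 to 15.5 CPM in injured and 0 to 24.9 CPM in intact libraries (log2 change 0.93 ± 0.73, edgeR adjusted p = 0.519). Itgb3, another αv partner, measured 0 to 4.33 CPM against 0 to 1.79 CPM (log2 change 2.92 ± 1.13, edgeR adjusted p = 0.149). The leukocyte subunit genes were near 0: Itgb2 had a count in 1 of 18 libraries, Itgax in 2, Itgad in 2, Itgam in 5 and Itgal in 7.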
